A study of Homo sapiens with 6 samples.

Results

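Measured here were 32 genes that are known to be induced when oxygen is low and that lie outside glycolysis and the extracellular matrix. They were taken by gene name from the 61228 rows of a gene count table. All 32 were found, each had at least 60 counts summed over the 6 libraries, and each was among the 14704 genes tested. The libraries hold polyadenylated RNA of MDA-MB-231, an established triple-negative human breast cancer line, grown in gels of collagen I. The treated group (KO, 3 libraries) was nucleofected with Cas9 and guide RNAs; its treatment label gives knockout of ETV1, ETV4 and ETV5, its sample titles name ETV4 alone, and its library names carry the tag c39. Control cells (3 libraries) were nucleofected with Cas9 and control guide RNAs and grown in the same kind of gel. Whether c39 marks a single clone is not stated, so a difference between the groups and a property of 1 clone cannot be told apart. No oxygen level is named in the labels, and the protocol gives 2 collagen concentrations (1.2 and 2.4 mg/ml) without assigning them to libraries.

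Hypoxia-inducible factors (HIF) are pairs of an oxygen-labile alpha subunit, HIF1A or EPAS1, and the stable partner ARNT. Prolyl hydroxylases of the EGLN family use oxygen to mark the alpha subunit, and VHL then sends it for degradation; when oxygen is short the pair accumulates and binds hypoxia response elements, whose core reads ACGTG or GCGTG. The targets described here encode secreted hormones, transcriptional regulators, stress and death proteins, ubiquitin ligase adaptors, alpha-arrestins, membrane and scaffold proteins and metabolic enzymes. ETV1, ETV4 and ETV5 are closely related ETS-family transcription factors that ERK signalling activates.

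Promoter sequence was examined for the core of the hypoxia response element, ACGTG or GCGTG. RefSeq windows on GRCh38.p14, from 250 bases before to 50 bases after an annotated start, were found for 24 of the 32 genes and not for RAB20, STC1, FUT11, VEGFA, GPRC5A, ZNF395, SPAG4 and ANKZF1. The windows printed belong to the gene with the largest decrease (PPFIA4), a MYC antagonist that fell (MXI1), a gene with 4 core elements (FAM162A), a gene that fell without one (TMEM45A) and a gene that rose (ADM). They lie at chr1:203026241-203026540 (plus strand), chr10:110209981-110210280 (plus), chr3:122383932-122384231 (plus), chr3:100492369-100492668 (plus) and chr11:10304823-10305122 (plus), in that order. Each is written 5′ to 3′ on the gene's strand, and capitals mark ACGTG or GCGTG on either strand.
PPFIA4: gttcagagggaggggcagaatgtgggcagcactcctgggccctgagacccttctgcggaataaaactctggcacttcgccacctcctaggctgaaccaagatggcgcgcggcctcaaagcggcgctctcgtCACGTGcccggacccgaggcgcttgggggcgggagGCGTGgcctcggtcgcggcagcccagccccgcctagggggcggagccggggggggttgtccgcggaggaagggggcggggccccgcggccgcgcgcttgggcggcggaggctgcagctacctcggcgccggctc
MXI1: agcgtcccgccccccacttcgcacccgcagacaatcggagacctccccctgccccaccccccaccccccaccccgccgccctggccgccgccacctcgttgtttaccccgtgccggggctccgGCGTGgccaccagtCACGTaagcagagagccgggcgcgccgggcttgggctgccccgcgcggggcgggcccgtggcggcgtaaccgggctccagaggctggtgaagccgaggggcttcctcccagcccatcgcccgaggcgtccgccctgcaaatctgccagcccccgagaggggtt
FAM162A: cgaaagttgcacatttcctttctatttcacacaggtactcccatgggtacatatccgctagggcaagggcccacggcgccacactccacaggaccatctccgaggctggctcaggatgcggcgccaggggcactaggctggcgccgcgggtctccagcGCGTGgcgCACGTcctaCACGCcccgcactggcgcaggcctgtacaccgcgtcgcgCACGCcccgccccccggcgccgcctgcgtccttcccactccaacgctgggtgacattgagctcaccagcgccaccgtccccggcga
TMEM45A: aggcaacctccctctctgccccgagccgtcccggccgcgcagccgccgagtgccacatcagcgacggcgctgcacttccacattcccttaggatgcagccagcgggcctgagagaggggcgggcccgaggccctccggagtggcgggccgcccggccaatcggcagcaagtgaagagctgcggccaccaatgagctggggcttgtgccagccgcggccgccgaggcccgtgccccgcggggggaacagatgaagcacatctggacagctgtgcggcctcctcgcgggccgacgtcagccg
ADM: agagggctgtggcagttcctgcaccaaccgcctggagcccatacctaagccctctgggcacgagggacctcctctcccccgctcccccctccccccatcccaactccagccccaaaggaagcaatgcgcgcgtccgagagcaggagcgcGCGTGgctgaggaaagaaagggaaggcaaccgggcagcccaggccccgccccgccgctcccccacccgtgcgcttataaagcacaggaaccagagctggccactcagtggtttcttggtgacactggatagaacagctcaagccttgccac

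The PPFIA4 window carried the elements 119 and 84 bases before the start, the first of them inside the palindrome CACGTG. In MXI1 they stood 127 and 113 bases before the start, in FAM162A 92, 84, 75 and 36 bases before it, and in ADM 101 bases before it. Where a gene had several windows, one with the most elements was printed, which applies to MXI1. The MXI1 window further upstream, at chr10:110207355-110207654, held 0 core elements and 1 match of the ETS-type core CCGGAA. Over the 36 windows of the 24 genes, 27 (75.0%) held at least 1 element, against 17012 of the 35116 windows in the whole table (48.4%). That background spans 27305 genes, more than the 14704 tested here, and was not matched for base composition. Some genes have several windows, which can overlap, so windows are not independent. Among genes that were lower in KO, 10 of 13 with a window had an element, and among the others 10 of 11 did, so its presence in these windows did not separate the genes that fell from those that did not. TMEM45A, YEATS2 and RORA, which were lower, and ARRDC3, which was higher, had none in these windows. CACGTG, an overlapping motif, stood in 7 of the 36 windows (19.4%) and in 7.26% of all windows, and the ETS-type core CCGGAA, on either strand, stood in 4 (11.1%) and in 17.2% of all windows. These are matches of letters within 300 bases and were not tested as binding sites.

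Counts assigned to genes summed to between 18042601 and 19250921 in the KO libraries and to between 18806653 and 23232770 in the control libraries. Levels are in CPM, that is, counts relative to the TMM-adjusted library total; 3 counts, the most that a reading of 0 allows, equal 0.128 to 0.165 CPM at this depth. Labels do not say whether replicates are separate cultures, so the p-values cover the spread among these libraries, which may be technical. ETV1 transcripts were 135, 137 and 155 CPM in KO, against 218, 213 and 238 CPM in control (log2 fold change -0.65, edgeR's adjusted p = 0.00125). ETV4 transcripts were 65.5, 61.5 and 64.0 CPM in KO, against 95.3, 94.9 and 91.4 CPM in control (-0.56, edgeR's adjusted p = 6.12e-04). ETV5 transcripts were 114, 113 and 112 CPM in KO and 117, 108 and 112 CPM in control (0.01, edgeR's adjusted p = 0.93), so the label's knockout of ETV5 is not visible in its mRNA level. Reads over a whole gene do not show whether its coding sequence was disrupted. VIM, CD44, AXL, CAV1 and KRT18, which mark this line, were all at 255.6 CPM or above, and ESR1, PGR and CDH1 were at 0.269 CPM or below. ERBB2 and EPCAM, also listed as low in this line, were at 54.5 to 65.0 CPM and 17.3 to 22.5 CPM over the 6 libraries. Markers of fibroblasts, endothelium and leukocytes, 9 genes, summed to 6.38 to 8.88 CPM in KO and 11.2 to 12.9 CPM in control, with CDH5 and CD3E at 0 in every library. Of the 3 that could be tested, PECAM1 fell (log2 fold change -0.85); their part in the results was not tested. Mitochondrial transcripts took 2.65% to 3.82% of KO counts and 3.15% to 4.26% of control counts.

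Most of the 32 hypoxia targets were lower in KO cells. By edgeR's quasi-likelihood test, adjusted over all 14704 genes with a threshold of 0.05, 18 fell (56.2%), 2 rose (6.25%) and 12 did not pass. Of all tested genes, 6.42% fell and 3.28% rose. The median log2 fold change of the 32 was -0.44, against 0.00 over all tested genes, and 25 of the 32 estimates were negative. Decreases of at least 2-fold were found for 7 of the 32, PPFIA4, SPAG4, RIMKLA, TMEM45A, RORA, MXI1 and ANKZF1, whereas 1.19% of tested genes fell by that much. In bulk RNA, fewer cells expressing a gene and less of its RNA per cell cannot be told apart. With the replicate number as a block, 24 fell and 3 rose, but there 16.7% of all tested genes fell and 17.2% rose, and few residual degrees of freedom remain. Against a 1.2-fold limit (glmTreat) 13 fell and 0 rose, where 2.47% of all tested genes fell and 0.564% rose. By DESeq2 17 fell and 3 rose, where 6.57% of all tested genes fell and 4.03% rose.

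**Figure D1:**
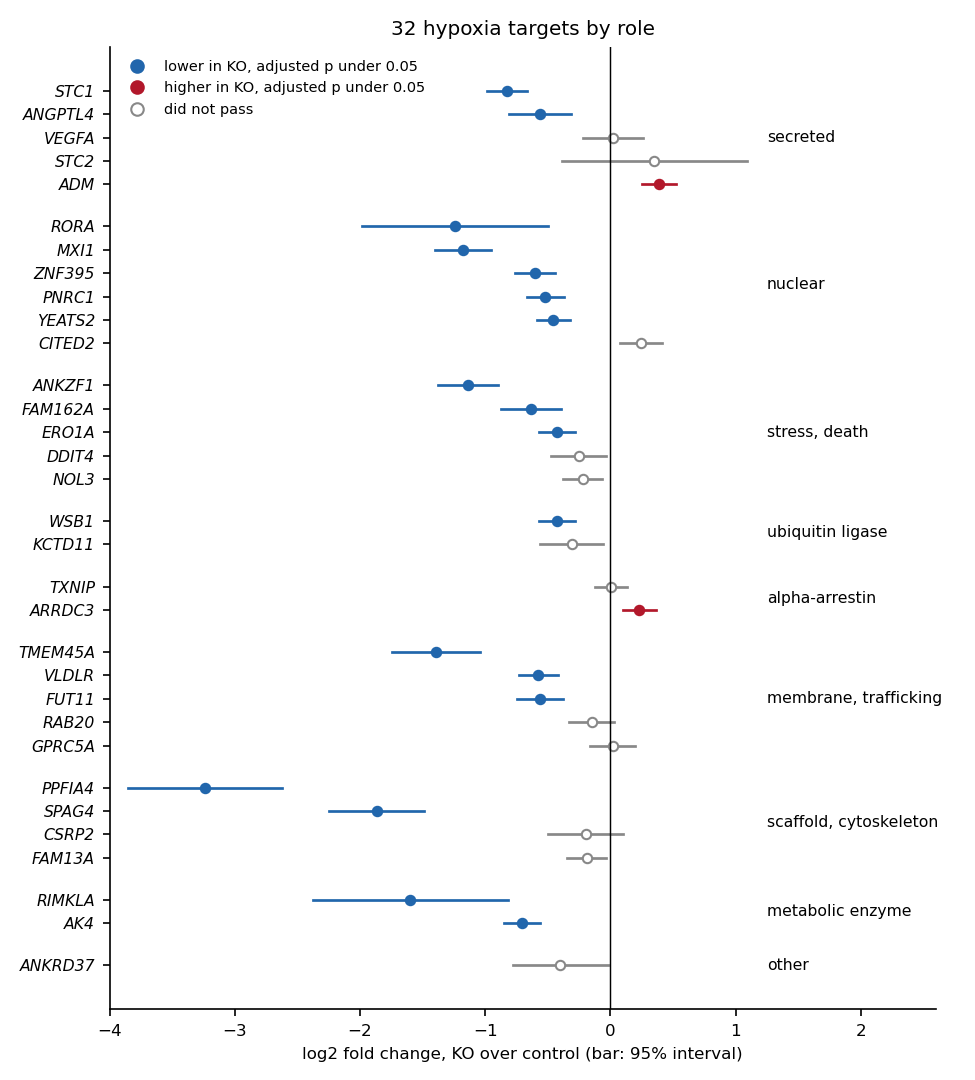
Log2 fold change (x axis, KO over control) of each of the 32 genes (rows, grouped by role) with its 95% interval from edgeR; filled blue points passed the test lower in KO, filled red points passed it higher, and open grey points did not pass. The 18 blue points reach from -3.24 (PPFIA4) to -0.42 (ERO1A), and the 2 red points are ADM and ARRDC3.

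Scaffold and cytoskeletal genes held the largest decreases, in 2 of 4 members. PPFIA4 encodes a liprin-alpha, a scaffold protein of presynaptic zones and adhesion sites (ENSG00000143847, GRCh38 chromosome 1, 203026498 to 203078740, plus strand). Its level was 3.21, 1.56 and 4.51 CPM in the KO libraries, against 30.4, 29.3 and 27.7 CPM in the control libraries. Every KO library was far below every control library, and the KO libraries differed among themselves more, in proportion, than the controls did. The fitted decrease was 9.44-fold (log2 fold change -3.24, SE 0.27, edgeR's adjusted p = 3.92e-04), and KO retained 10.6% of the control mean. SPAG4 encodes a SUN-domain protein of the nuclear envelope (ENSG00000061656, chromosome 20, 35615892 to 35621049, plus strand). It had 6.11, 4.41 and 6.94 CPM in KO, against 20.4, 18.9 and 24.1 CPM in control, without overlap. This was a 3.64-fold decrease (log2 fold change -1.86, SE 0.17, edgeR's adjusted p = 3.62e-04). CSRP2, a LIM protein that binds actin, and FAM13A did not pass. CSRP2 ranged from 15.0 to 19.8 CPM in KO and from 18.1 to 22.7 CPM in control, which overlap (log2 fold change -0.20, edgeR's adjusted p = 0.401; 0.0465 with the replicate block). FAM13A ranged from 27.5 to 30.3 CPM in KO and from 32.8 to 33.9 CPM in control, without overlap (-0.19, edgeR's adjusted p = 0.126; 0.0203 with the replicate block).

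Both metabolic enzymes fell. RIMKLA joins glutamate to N-acetylaspartate, which makes the neuropeptide NAAG (ENSG00000177181, chromosome 1, 42380795 to 42422578, plus strand). It had 1.5, 1.71 and 0.72 CPM in KO, against 5.20, 4.09 and 2.72 CPM in control. The groups did not overlap, and replicate 3 was the lowest library in each. The log2 fold change was -1.60 (SE 0.34, edgeR's adjusted p = 0.0216), and it no longer passed without KO replicate 1 (0.0662), control replicate 1 (0.0881) or control replicate 2 (0.0770). AK4, an adenylate kinase of the mitochondrial matrix, was at 85.9 ± 2.55 CPM in KO and 140.3 ± 8.70 CPM in control (SD, n = 3 each). Its log2 fold change of -0.71 (SE 0.06, edgeR's adjusted p = 3.90e-04) passed in each of the 6 fits that left out 1 library.

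Among 6 nuclear regulators, 5 fell. MXI1 binds MAX and represses the genes that MYC with MAX activates (ENSG00000119950, chromosome 10, 110207605 to 110287365, plus strand). MXI1 measured 16.2, 18.5 and 15.7 CPM in KO, against 42.2, 36.8 and 35.3 CPM in control. The groups lay far apart and did not overlap. The log2 fold change was -1.18 (SE 0.10, edgeR's adjusted p = 2.87e-04). RORA, the orphan nuclear receptor ROR-alpha (ENSG00000069667, chromosome 15, 60488284 to 61229319, minus strand), stood near the detection limit, with 11, 7 and 7 counts in KO and 24, 20 and 23 counts in control. These are 0.59, 0.36 and 0.39 CPM in KO and 1.13, 1.08 and 0.98 CPM in control, without overlap. Its log2 fold change of -1.24 (SE 0.33, edgeR's adjusted p = 0.0464) passed in none of the 6 fits that left out 1 library (adjusted p 0.0749 to 0.165), and DESeq2 gave 0.115. The remaining regulators that fell did so by smaller amounts. ZNF395, a zinc finger transcription factor, had a log2 fold change of -0.60, PNRC1, a nuclear receptor coregulator, -0.52, and YEATS2, the acyl-lysine reader of a histone acetyltransferase complex, -0.46. All 3 passed in each of the 6 fits that left out 1 library. CITED2, which competes with HIF1A for the coactivators CBP and p300, was at 307 to 356 CPM in KO and 267 to 291 CPM in control. Its groups did not overlap, yet the log2 fold change of 0.25 (SE 0.07) did not pass (edgeR's adjusted p = 0.0736; 4.11e-08 with the replicate block and 0.0314 with DESeq2).

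In the stress and cell death group 3 of 5 genes fell. ANKZF1 is a hydrolase of the pathway that frees chains from stalled ribosomes (ENSG00000163516, chromosome 2, 219229757 to 219236669, plus strand). It had 29.2, 22.8 and 30.3 CPM in KO, against 58.5, 59.96 and 63.0 CPM in control. KO libraries lay well below control libraries, with KO replicate 2 the lowest. The decrease was 2.20-fold (log2 fold change -1.14, SE 0.11, edgeR's adjusted p = 3.93e-04). FAM162A, a mitochondrial protein linked to cell death in hypoxia, fell by 0.63 on the log2 scale (SE 0.11, edgeR's adjusted p = 0.00738). ERO1A, the oxidase that recharges protein disulfide isomerase in the endoplasmic reticulum, was at 228 to 240 CPM in KO and 303 to 335 CPM in control. Its groups did not overlap (log2 fold change -0.42, SE 0.06, edgeR's adjusted p = 0.00417). DDIT4, an inhibitor of the growth kinase mTORC1, ranged from 172 to 214 CPM in KO and from 209 to 244 CPM in control, which overlap. It did not pass (log2 fold change -0.25, edgeR's adjusted p = 0.136), but passed without KO replicate 3 (0.0261) and with the replicate block (1.41e-07). NOL3, an apoptosis repressor with a caspase recruitment domain, was at 27.4 to 28.4 CPM in KO and 31.1 to 33.6 CPM in control (-0.22, edgeR's adjusted p = 0.0800; 0.00782 with the replicate block).

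Secreted factors divided, with 2 of 5 lower and 1 higher. STC1, the glycoprotein hormone stanniocalcin-1 (ENSG00000159167, chromosome 8, minus strand), had 41.0, 39.4 and 43.8 CPM in KO, against 76.6, 74.4 and 69.5 CPM in control. The groups lay far apart relative to their spread. The log2 fold change was -0.83 (SE 0.07, edgeR's adjusted p = 2.93e-04). ANGPTL4, an inhibitor of lipoprotein lipase, was 9.96 to 12.2 CPM in KO and 15.0 to 17.0 CPM in control, without overlap. Its log2 fold change of -0.56 (SE 0.11, edgeR's adjusted p = 0.0146) no longer passed without KO replicate 2 (0.0683), control replicate 1 (0.0660) or control replicate 2 (0.0752). ADM, the vasodilator peptide adrenomedullin (ENSG00000148926, chromosome 11, 10304680 to 10307397, plus strand), was the clearest exception. Its level was 71.1, 76.4 and 72.3 CPM in KO, against 55.9, 57.0 and 55.0 CPM in control. Every KO library was above every control library, and the log2 fold change of 0.39 (SE 0.06, edgeR's adjusted p = 0.00463) passed in each of the 6 fits that left out 1 library.

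VEGFA, the angiogenic growth factor and a textbook HIF target, did not pass. It ranged from 196 to 248 CPM in KO and from 199 to 240 CPM in control, with the highest library of both groups being replicate 3. The log2 fold change was 0.02 with a 95% interval from -0.22 to 0.26 (edgeR's adjusted p = 0.926), and the lower bound lies above the fitted changes of STC1 and ANGPTL4. STC2, stanniocalcin-2, was barely detected, with 14, 16 and 15 counts in KO and 12, 9 and 19 counts in control. Its interval, -0.39 to 1.09, is too wide at this depth to place it with the genes that fell or rose.

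Of the 5 membrane and trafficking genes 3 fell. TMEM45A, a multipass membrane protein (ENSG00000181458, chromosome 3, 100492619 to 100577444, plus strand), had 6.21, 5.66 and 6.16 CPM in KO, against 14.6, 13.3 and 19.4 CPM in control. The KO libraries were close to each other, while control replicate 3 stood above the other controls. The log2 fold change was -1.39 (SE 0.16, edgeR's adjusted p = 9.77e-04). VLDLR, a receptor for apolipoprotein E-rich particles and reelin, fell by 0.58 on the log2 scale (SE 0.07), and FUT11, a fucosyltransferase, fell by 0.56 (SE 0.08). Both passed in each of the 6 fits that left out 1 library. RAB20, a small GTPase of endosomes, was 20.9 to 21.4 CPM in KO and 22.1 to 25.0 CPM in control (log2 fold change -0.15, edgeR's adjusted p = 0.288). GPRC5A, an orphan receptor induced by retinoic acid, was 236 to 264 CPM in KO and 231 to 268 CPM in control, and its 95% interval ran from -0.17 to 0.20.

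Among the ubiquitin ligase adaptors 1 of 2 fell, and of the alpha-arrestins 1 of 2 rose. WSB1, a substrate receptor of a SOCS-box ubiquitin ligase, was 61.4 to 68.0 CPM in KO and 84.3 to 89.8 CPM in control (log2 fold change -0.43, SE 0.06, edgeR's adjusted p = 0.00399). KCTD11, an adaptor of cullin-3 ligases, was 8.68 to 10.3 CPM in KO and 11.1 to 12.3 CPM in control (-0.31, edgeR's adjusted p = 0.122; 0.0236 with the replicate block). TXNIP, the alpha-arrestin that binds thioredoxin and restrains glucose uptake, was 207 to 215 CPM in KO and 207 to 213 CPM in control. Its 95% interval, -0.12 to 0.13, was the narrowest among members that did not pass. ARRDC3, an alpha-arrestin that brings ubiquitin ligases to surface receptors (ENSG00000113369, chromosome 5, 91368724 to 91383359, minus strand), had 72.1, 72.9 and 76.9 CPM in KO, against 62.4, 62.5 and 64.1 CPM in control. All KO libraries were above all control libraries by a small margin. The log2 fold change of 0.23 (SE 0.06, edgeR's adjusted p = 0.0392) passed in none of the 6 fits that left out 1 library (adjusted p 0.0563 to 0.152). ANKRD37, a small ankyrin-repeat protein, was 5.62 to 6.85 CPM in KO and 6.38 to 9.36 CPM in control, which overlap (-0.40, edgeR's adjusted p = 0.174; 0.0177 with the replicate block).

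**Figure D2:**
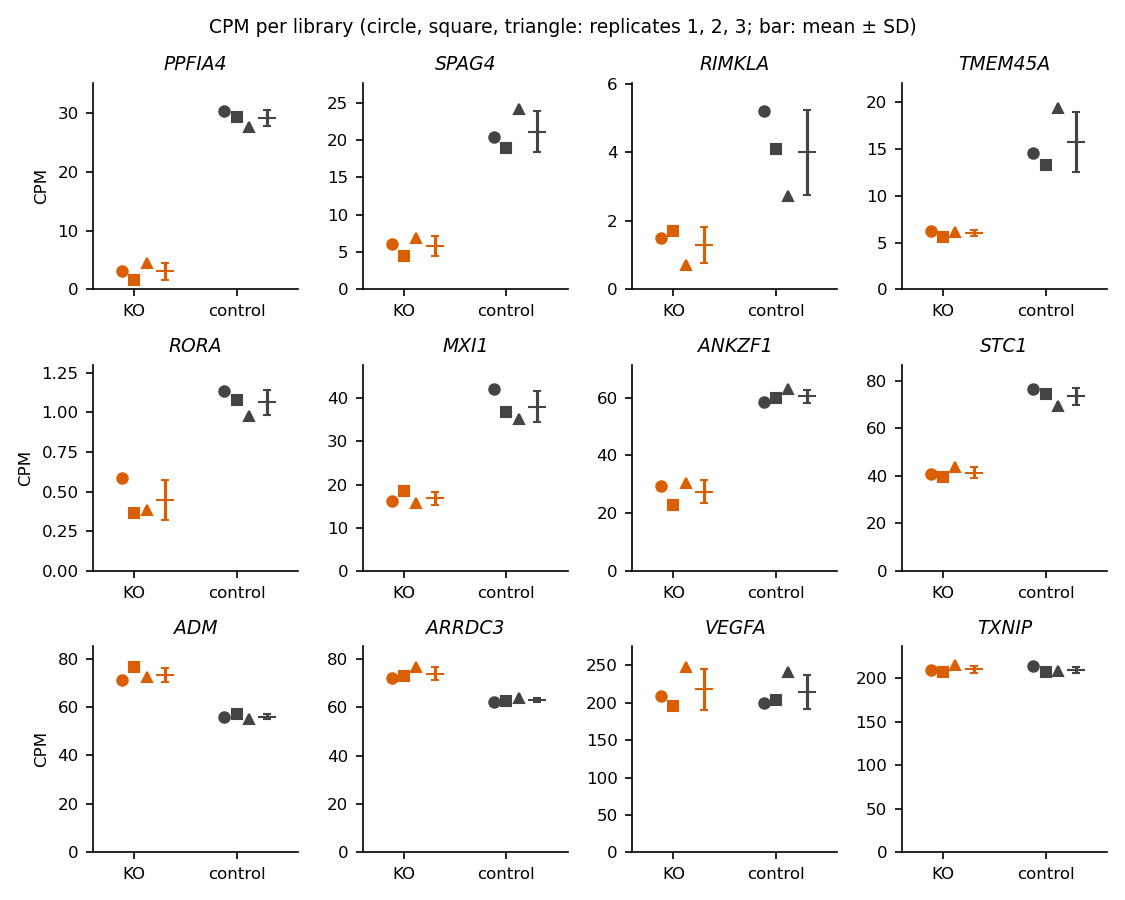
CPM (y axes, from 0) of 12 of the genes in each KO library (orange, left) and control library (grey, right); symbols give the replicate number and bars the mean ± SD of 3 libraries. In the 8 genes that fell and the 2 that rose the groups are apart, while VEGFA and TXNIP overlap.

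The separation of the groups held library by library. Every KO library was below every control library for 22 of the 32 genes, a pattern shown by 16.8% of tested genes, and above for 3, shown by 14.9%. Replicate 3 differed from replicates 1 and 2 in both groups. Its log2 CPM deviated from their mean in the same direction in KO and in control for 25 of the 32 genes. The deviation was upward for 13 and downward for 12, and more than 0.5 in both groups for RIMKLA alone. Such deviations were not confined to the 32: over 10032 genes, those of replicate 3 correlated at 0.83 between the groups. Within pairs of the same replicate number, the median difference over the 32 genes was -0.48, -0.48 and -0.44 on the log2 scale (KO minus control), with 26, 27 and 26 genes lower. Over all tested genes the median differences were -1.61e-04, -0.0062 and 0.020. All 18 genes that fell had every KO library below every control library, so their being lower in all 3 pairs follows and adds nothing. Pair differences were widest for PPFIA4, at -3.20, -4.15 and -2.59. With both replicate-3 libraries left out, 20 genes fell and 3 rose, where 13.7% of all tested genes fell and 11.7% rose.

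**Figure D3:**
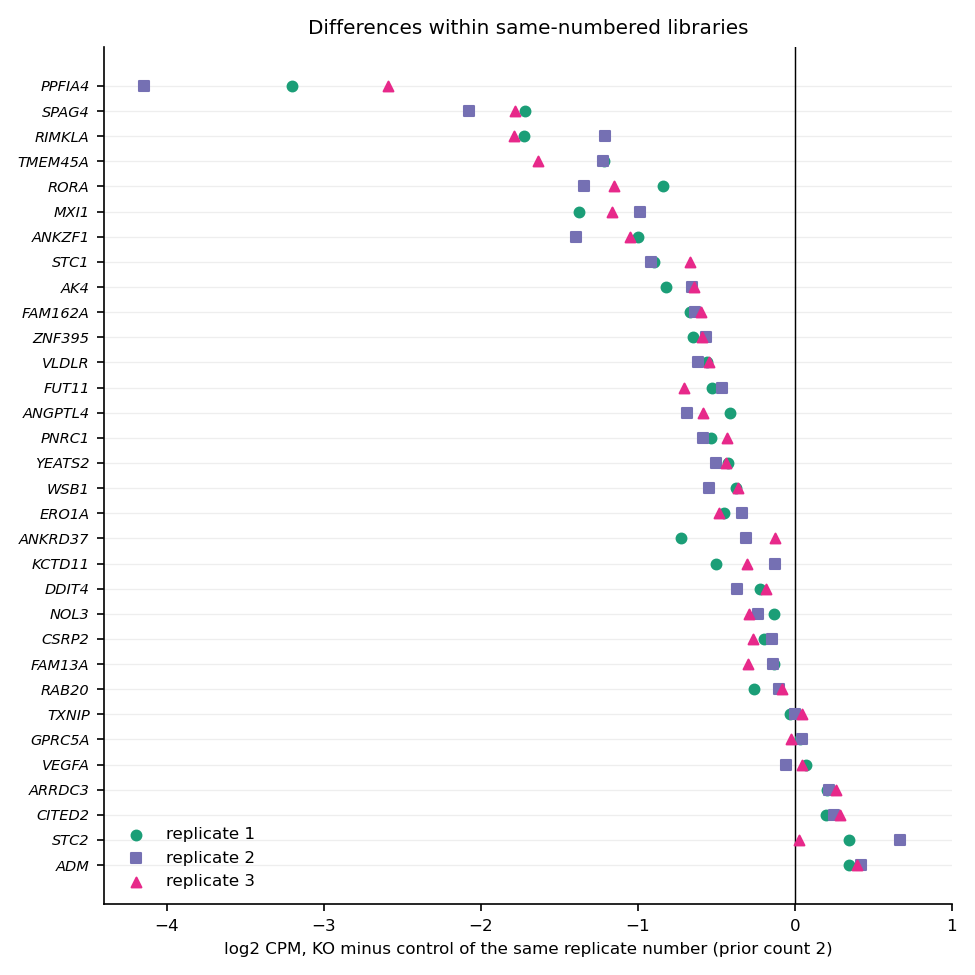
Difference in log2 CPM (x axis, KO minus control, prior count 2) within libraries of the same replicate number, for each of the 32 genes (rows, ordered by fold change); symbols give replicates 1, 2 and 3. The 18 genes that fell lie left of 0 in all 3 pairs, from PPFIA4 at the top to ERO1A.

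Levels of the genes spanned a wide range. Per kilobase of exon (GENCODE release 29), CITED2 led in KO, at 129 CPM per kilobase against 109 in control, followed by DDIT4, at 91.6 in KO against 109 in control, and TXNIP, at 57.9 in KO against 57.7 in control. RORA was lowest, at 0.026 CPM per kilobase in KO against 0.062 in control. PPFIA4 ranked 29 of 32 in KO and 27 in control, and SPAG4 ranked 25 in KO and 18 in control. Control levels of the genes that fell ran from 0.062 CPM per kilobase for RORA to 41.9 for ERO1A. Exon bases shared with a neighbour could raise or lower some of these counts. For neighbours on the opposite strand this depends on the strand setting of counting, which is not given in the sources used here. ANKRD37 shares 35.2% of its exon bases with UFSP2 on the opposite strand, which had 4063 counts over all libraries against its own 849, and DDIT4 shares 41.2% with the antisense gene DDIT4-AS1. ZNF395 shares 34.9% with FBXO16 on the same strand, which had 90 counts.

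Most tested paralogues of the 32 genes did not pass the test. Of 55 listed, 40 were tested, 5 fell (12.5%), 2 rose (5%) and 33 did not pass. Of all tested genes, 6.42% fell and 3.28% rose. The median log2 fold change of the paralogues was -0.10. With the replicate block 12 paralogues fell and 5 rose, where 16.7% of all tested genes fell and 17.2% rose. With 1 library left out between 2 and 6 paralogues fell and between 0 and 2 rose. PPFIA4 fell while PPFIA1, another liprin-alpha, at 98.1 ± 7.30 CPM in KO and 88.4 ± 9.20 CPM in control (SD, n = 3 each), did not pass (0.15; edgeR's adjusted p = 0.334, and 0.0143, higher in KO, with the replicate block). The nuclear envelope genes SUN1 and SUN2, relatives of SPAG4, had log2 fold changes of -0.13 and -0.18 and did not pass; both passed with the replicate block (edgeR's adjusted p = 0.0116 and 0.00136). In the MXD family, to which MXI1 belongs, MXD4 fell by 0.26 on the log2 scale (edgeR's adjusted p = 0.0317) but passed in none of the 6 fits that left out 1 library (0.0542 to 0.144). MXD1, also a MAX-binding repressor, had 46.1, 43.0 and 48.0 CPM in KO, against 31.0, 32.6 and 36.3 CPM in control. Its groups did not overlap (log2 fold change 0.45, SE 0.08, edgeR's adjusted p = 0.0104), but it did not pass without control replicate 1 (0.0550) or control replicate 2 (0.0586).

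Placental growth factor, PGF, fell although its relative VEGFA did not pass. PGF had 6.48, 5.40 and 5.83 CPM in KO, against 12.2, 9.59 and 10.1 CPM in control. The groups did not overlap (log2 fold change -0.85, SE 0.14, edgeR's adjusted p = 0.00620). CSRP1, a LIM protein like CSRP2, fell to 140.3 ± 3.99 CPM in KO, against 200.6 ± 3.38 CPM in control (SD, n = 3 each; -0.52, edgeR's adjusted p = 8.08e-04). PGF and CSRP1 passed in each of the 6 fits that left out 1 library. ARRDC2, a relative of ARRDC3, fell by 0.45 on the log2 scale but did not pass without KO replicate 2 or control replicate 1 (edgeR's adjusted p 0.0618 and 0.0646). FAM13B rose by 0.29 but did not pass without KO replicate 2, control replicate 1 or control replicate 2 (0.0524 to 0.0762). Whether a gene and its paralogue differed in response was not tested.

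**Figure D4:**
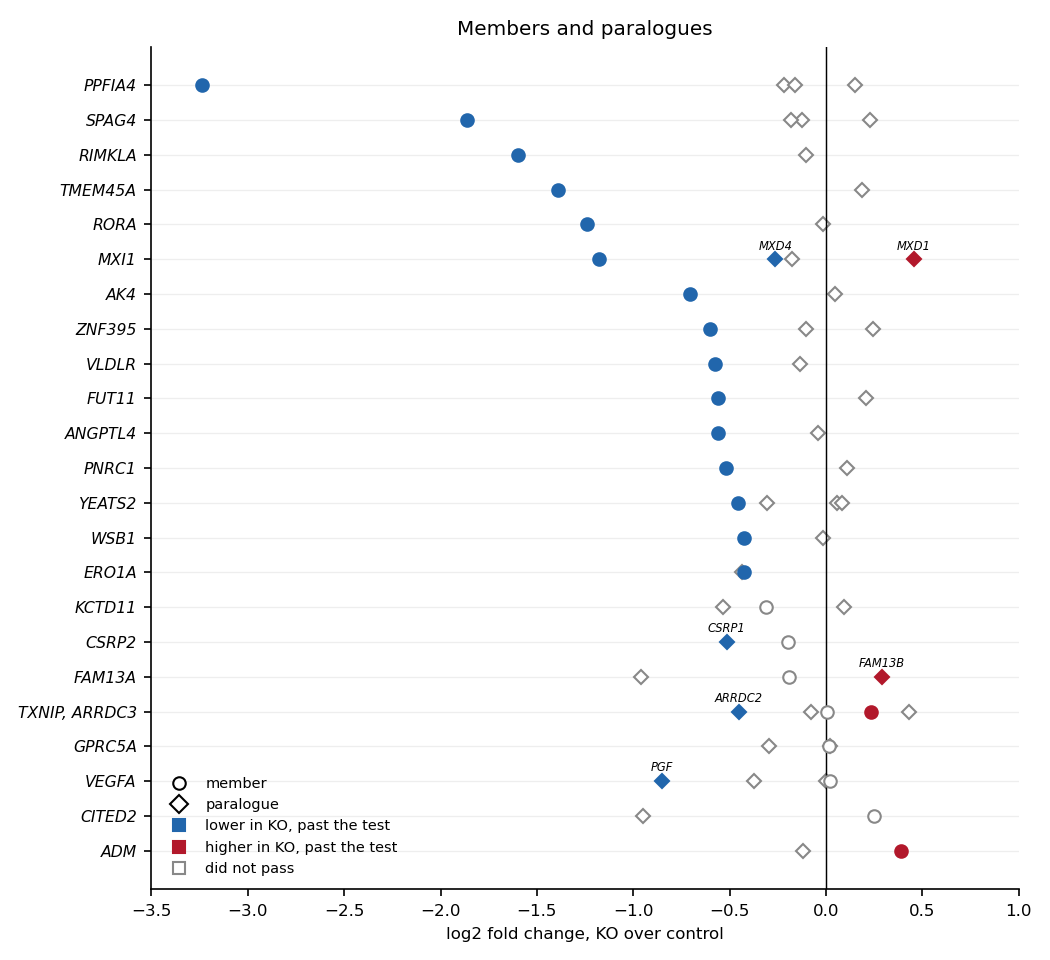
Log2 fold change (x axis, KO over control) of members (circles) and of paralogues (diamonds), one family per row; blue passed the test lower in KO, red higher, and open grey symbols did not pass. Most diamonds lie between -0.5 and 0.5, right of the blue circles of the same row; PGF, CSRP1, ARRDC2 and MXD4 are the blue diamonds, and MXD1 and FAM13B the red ones.

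Genes of oxygen sensing were measured beside their targets. Of 18 listed, 17 were tested, and 1 fell (5.88%), 1 rose (5.88%) and 15 did not pass. Of all tested genes, 6.42% fell and 3.28% rose. HIF1A transcripts were 431, 446 and 420 CPM in KO, against 373, 385 and 351 CPM in control. The KO libraries were higher without overlap, yet the difference did not pass (log2 fold change 0.23, SE 0.06, edgeR's adjusted p = 0.0572). It passed with the replicate block (edgeR's adjusted p = 1.09e-07) and by DESeq2 (adjusted p = 0.0139). EPAS1 (0.24) was also higher without overlap and did not pass (edgeR's adjusted p = 0.117), but passed with the replicate block (0.00291). ARNT (-0.09) and VHL (-0.06) did not pass either. EGLN1 was lower without overlap (-0.44) and did not pass (edgeR's adjusted p = 0.0602). It passed with the replicate block (edgeR's adjusted p = 1.42e-05) and by DESeq2 (adjusted p = 0.0332). EGLN3, a HIF prolyl hydroxylase that is itself a HIF target, had 1.07, 1.66 and 1.27 CPM in KO, against 4.68, 3.66 and 2.85 CPM in control. It was lower in every KO library (log2 fold change -1.48, SE 0.26, edgeR's adjusted p = 0.00956) and passed in each of the 6 fits that left out 1 library. CREBBP, which encodes the coactivator CBP, rose by a log2 fold change of 0.29 (edgeR's adjusted p = 0.0200), but not without KO replicate 2 (0.0675), control replicate 1 (0.0806) or control replicate 2 (0.0956). With the replicate block 2 of the 17 oxygen-sensing genes fell and 4 rose, where 16.7% of all tested genes fell and 17.2% rose.

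Other HIF targets fell for the larger part. Among 20 glycolytic targets 16 fell (median log2 fold change -0.45), among 7 matrix targets 6 fell (-0.59), and among 20 further targets 11 fell and 1 rose (-0.53). By the same test 6.42% of all tested genes fell and 3.28% rose. These lists were written with earlier results of these data known. EGLN1 and EGLN3 stand both among the further targets and among the oxygen-sensing genes, so the decrease of EGLN3 is counted in both lists. By edgeR 0 glycolytic and 0 matrix targets rose, and the counts were also 0 at an unadjusted p under 0.05 and by DESeq2. The share that fell among the 32 genes described here, 56.2%, lay near the 55% of the further targets and below the 80% and 85.7% of the glycolytic and matrix lists; no test of a difference between lists was made. The smallest adjusted p among the further targets belonged to NDRG1, a gene induced by hypoxia and differentiation, which averaged 95.6 ± 3.64 CPM in KO and 576.6 ± 23.2 CPM in control (SD, n = 3 each; -2.59, edgeR's adjusted p = 2.37e-07). CA9, the surface carbonic anhydrase IX, averaged 3.40 ± 0.233 CPM in KO and 41.2 ± 3.27 CPM in control (-3.59, edgeR's adjusted p = 5.10e-07, n = 3 each). BNIP3, a mitophagy receptor, fell by 1.46 on the log2 scale. Among glycolytic targets the smallest adjusted p belonged to the aldolase ALDOC, the enolase ENO2 and the kinase PDK1 (-1.94, -1.10 and -1.06), and among matrix targets to the collagen-modifying enzymes P4HA1, LOX and PLOD2 (-1.10, -1.21 and -0.59). Each of these 9 genes passed in each of the 6 fits that left out 1 library. SLC2A1, the glucose transporter GLUT1, did not pass (-0.05, edgeR's adjusted p = 0.729). TFRC, the transferrin receptor, was the further target that rose, at 310, 329 and 317 CPM in KO, against 240, 249 and 239 CPM in control (0.39, edgeR's adjusted p = 0.00383).

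**Figure D5:**
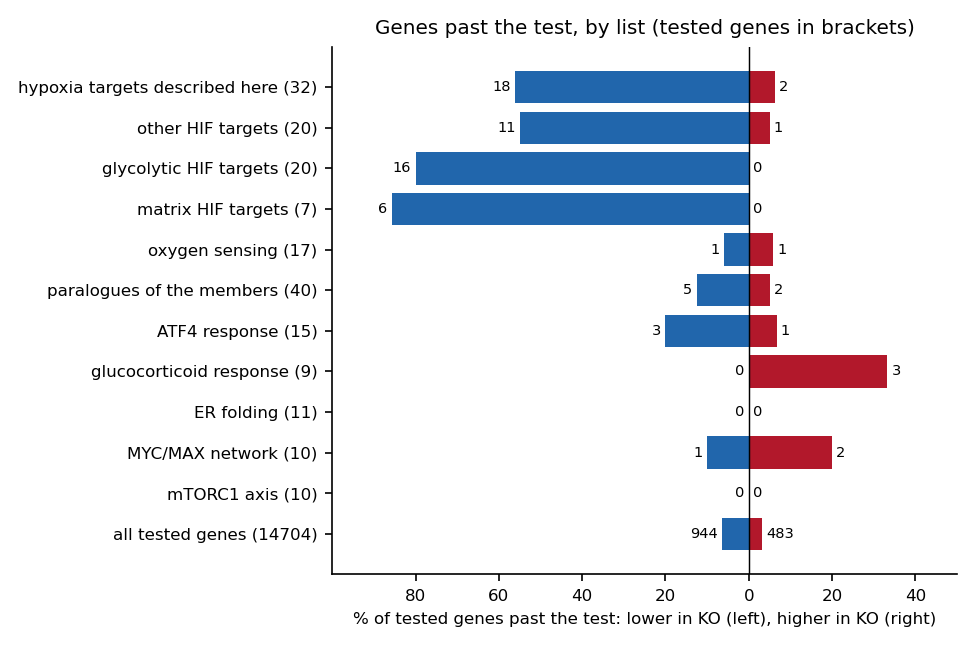
Share of tested genes past edgeR's test (x axis, percent) that were lower in KO (blue, left of 0) and higher in KO (red, right of 0), by gene list (rows, number tested in brackets); numbers at the bars are genes. The 32 hypoxia targets have 18 lower and 2 higher, and all tested genes have 944 lower and 483 higher.

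Pathways in which some of the 32 genes also take part were counted as well. Of all 14704 tested genes, 6.42% fell and 3.28% rose by edgeR's test, and 6.57% and 4.03% by DESeq2. At an unadjusted p under 0.05 by edgeR, 2082 of the 14704 fell and 1646 rose. With the replicate block 16.7% fell and 17.2% rose. Genes of oxidative protein folding, the setting of ERO1A, had 0 of 11 past edgeR's test, 2 at an unadjusted p under 0.05 and 0 by DESeq2. With the replicate block 3 of these folding genes fell and 2 rose. ERO1B, the paralogue of ERO1A, was lower without overlap but did not pass (log2 fold change -0.43, edgeR's adjusted p = 0.0904). It passed with the replicate block (edgeR's adjusted p = 0.00566). Genes of the mTORC1 axis, the setting of DDIT4, had 0 of 10 past edgeR's test, 2 at an unadjusted p under 0.05 and 0 by DESeq2; with the block 2 fell and 2 rose. In the MYC and MAX network, the setting of MXI1, 1 of 10 fell and 2 rose, and with the block 2 fell and 3 rose. The gene that fell was MXD4 and those that rose were MXD1 and MGA, a MAX-binding repressor (log2 fold change 0.34, edgeR's adjusted p = 0.0450); MGA passed in 1 of the 6 fits that left out 1 library (adjusted p up to 0.148). MYC itself had a log2 fold change of -0.02. Receptors of the secreted factors numbered 8, of which 4 were tested. The tested ones had 0 of 4 past edgeR's test, at an unadjusted p under 0.05 or by DESeq2. Their log2 fold changes ran from -0.17 to 0.12. FLT1, another receptor of the list, was not tested, with 2, 0 and 6 counts in KO and 10, 9 and 8 counts in control. CALCRL, the receptor through which adrenomedullin acts, was at 0.165 to 0.643 CPM in KO and 0.215 to 0.723 CPM in control, too few counts to be tested.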

How the data were processed

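RNA of 6 libraries was measured, 3 KO and 3 control; groups follow the treatment label. The deposited values are raw counts of reads per gene, whole numbers with a different total in each library. They were made on hg38 with STAR 2.7.9a and featureCounts, with FastQC 0.11.9 and R 4.1.1 also named, per the submitters' processing notes; libraries were stranded, per the labels' protocols. No source used here gives the gene annotation or the strand setting of counting. In the table, 32466 genes had no count.

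Genes were kept by filterByExpr (14704), scaled by TMM and tested with edgeR 4.0.16 (R 4.3.3, glmQLFit robust, glmQLFTest), group as the single term, with Benjamini-Hochberg adjustment over all tested genes, a threshold of 0.05 and no fold limit. CPM use TMM-scaled totals; intervals are 95%. DESeq2 1.42.0 was an alternative. The procedure was also run on simulated counts, drawn without differences between replicate numbers and with the smaller spread of the replicate-block fit. That run therefore does not cover the replicate differences seen in these libraries. The 32 genes, the other lists and the tests were chosen with earlier results of these data known. Values per library are given for members past the test with an absolute log2 fold change of at least 0.8 and for members that rose; lists are described by counts, with up to 3 genes per direction of smallest adjusted p; other genes named from the lists (such as SLC2A1, MYC, HIF1A and CALCRL) were chosen after their values were seen; a paralogue counted among those that fell is not reported here. Positions are from GENCODE release 29 on GRCh38.

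Replicate numbers were treated as pairing the libraries in the block fit and the pair differences, though no label states such a pairing. Deviations from the group means correlated within each number (0.55, 0.45 and 0.83 over 10032 genes). KO replicate 2 matched control replicate 1 (0.59) and KO replicate 1 control replicate 2 (0.58) better than their own numbers. Deviations cancel out within a group, so a replicate 3 that deviates alike in both groups makes replicates 1 and 2 correlate however they are matched. These values therefore show a shared replicate 3 and cannot decide how replicates 1 and 2 pair. Genes are also not independent replicates. Replicates of a group differed beyond sampling noise (chi-square per degree of freedom at least 3.88), so each was counted as 1 sample.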

Additional observations from a re-analysis of the deposited data

How the results depend on the processing

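The number of genes called depended strongly on the fit: 4983 (2461 lower, 2522 higher) with the replicate block, 446 (363 lower, 83 higher) against a 1.2-fold limit and 3754 (2023 lower, 1731 higher) with both replicate-3 libraries left out, in place of 1427 (944 lower, 483 higher). Leaving out 1 library gave 572 to 1741 genes, 436 to 964 lower and 136 to 777 higher. The 32 hypoxia targets varied less: 15 to 18 fell and 1 rose with 1 library left out, ADM in each case. Against the 1.2-fold limit 13 fell and 0 rose; edgeR's test without that limit called 2 higher, 3 were higher at an unadjusted p under 0.05 and 3 by DESeq2. With the replicate block no call of the 32 was lost and 7 were gained; RLE size factors and library totals changed no call and moved the median of all genes by less than 0.01 on the log2 scale. Without a filter on low counts RORA and ARRDC3 no longer passed and DDIT4 and CITED2 did. The sign changed for 3 genes that did not pass: VEGFA (-0.0624 to 0.113 with 1 library left out), GPRC5A (-0.0200 to 0.0929) and TXNIP (-0.00295 to 0.0228, and -0.0165 with both replicate-3 libraries left out). Depth limits RORA and STC2, with at most 24 counts in a library. The limit for a count of 0 covers counting error only, while the 95% intervals of fold changes come from edgeR's fit and include the spread among libraries.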

Other observations

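TXNIP, ARRDC3 and DDIT4 also respond to glucocorticoids or amino acid stress, and genes of those responses were counted. Of 10 glucocorticoid-responsive genes 9 were tested and 3 rose (33.3%), where 3.28% of all tested genes rose. FKBP5, a co-chaperone of the glucocorticoid receptor, had 118, 122 and 123 CPM in KO, against 90.5, 83.0 and 95.9 CPM in control. Its groups did not overlap (log2 fold change 0.43, edgeR's adjusted p = 0.00496), and it passed in each of the 6 fits that left out 1 library. DUSP1, a phosphatase of MAP kinases, had a log2 fold change of 0.36 (edgeR's adjusted p = 0.00911; 0.0513 without control replicate 1). SGK1, a serum- and glucocorticoid-regulated kinase, had 0.34 (edgeR's adjusted p = 0.0141) and did not pass without KO replicate 1 (0.0531), control replicate 1 (0.0762) or control replicate 2 (0.0728). By edgeR 0 of the 9 fell, 2 fell at an unadjusted p under 0.05, 1 by DESeq2 and 2 with the replicate block. With that block 16.7% of all tested genes fell.

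In the ATF4 response to amino acid stress, 3 of 15 genes fell and 1 rose, where 6.42% of all tested genes fell and 3.28% rose. Those that fell were CHAC1 (log2 fold change -0.46, edgeR's adjusted p = 0.0235), PHGDH (-0.34, 0.0361) and CTH (-0.36, 0.0386). CHAC1, PHGDH and CTH passed in 2, 1 and 0 of the 6 fits that left out 1 library. With the replicate block 6 of the 15 fell and 5 rose, where 16.7% of all tested genes fell and 17.2% rose. DDIT3, the stress transcription factor CHOP, had 12, 11.0 and 13.2 CPM in KO, against 7.99, 8.89 and 8.46 CPM in control. Its groups did not overlap (log2 fold change 0.51, edgeR's adjusted p = 0.0230), but it did not pass without KO replicate 1 (0.0712), control replicate 1 (0.101) or control replicate 2 (0.0725). With 1 library left out, 0 or 1 of the 15 fell and between 0 and 2 rose.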
